A study of Mus musculus with 62 samples.

Results

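The lysosome group described here comprises 38 mouse genes given as a list of names: 9 membrane proteins, 8 glycosidases, 5 proteins of lipid handling, 2 proteases with progranulin (Grn), the transcription factor Tfeb, and 12 genes of the vacuolar proton pump (V-ATPase), which are 4 V0 subunits, 6 V1 subunits and 2 accessory proteins. All 38 were found among the 53975 gene identifiers of the deposited gene abundance tables. Lysosomes are acidic organelles in which hydrolases break down proteins, sugars and lipids that arrive by endocytosis, phagocytosis and autophagy. The V-ATPase acidifies them: its V1 sector hydrolyses ATP in the cytosol, and its V0 sector passes protons through the membrane. In brain, every cell type has lysosomes, neurons also use the V-ATPase to load synaptic vesicles with transmitter, and phagocytic microglia are rich in lysosomal hydrolases and in the membrane proteins CD68 and LAPTM5.

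The group was followed in long-RNA libraries of 2 systems. Hippocampi of both hemispheres, combined for each animal, came from APP NL-G-F mice (APP below) or C57BL/6J mice (WT below). APP NL-G-F mice carry a humanised, mutated App allele in the App locus itself, so that it is expressed wherever App is. Every age (3, 6 and 12 months) was sampled with 3 APP mice; WT animals numbered 2 at 3 months, 3 at 6 months and 3 at 12 months. The study describes these ages as preceding plaques, as the time plaques and symptoms appear, and as the terminal stage. HT-22 cells, a mouse hippocampal line taken at passage 4, received an LNA (locked nucleic acid) oligonucleotide for 24 h, either directed against Hsf1 (150 nM) or scrambled (stated as 50 uM). They then received 30 uM of amyloid beta 1-42 (Aβ42) or of a peptide of reversed sequence, in DMSO. There were 4 libraries of each peptide with scramble LNA and 3 of each with anti-Hsf1 LNA, described as biological replicates.

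Levels are given as scaled TPM, which is TPM divided by a size factor of the library (median of ratios, computed within each system). Changes are log2 differences of scaled TPM + 1 with their standard error (SE), which understates the change of low genes. A gene was called when its limma p, adjusted by Benjamini-Hochberg over all genes tested (17767 in mouse, 17224 in HT-22 cells), was below 0.05. Mouse libraries had a relative depth of 1.42 to 3.04, HT-22 libraries one of 0.724 to 2.60, and the number of reads per gene is unknown. Xist was at 70.6 to 137 in 11 mouse libraries (every APP mouse and both WT mice of 3 months) and at 0.265 to 0.524 in the 6 WT libraries of 6 and 12 months. Y-linked Ddx3y was at 18.8 or more in those 6. At 6 and 12 months a difference between genotypes and a difference between the sexes therefore cannot be told apart, and the same holds for the genotype-by-age contrast. Comparisons between ages of APP mice lie within libraries with Xist. In tissue RNA, a change in the number of cells of a type and a change in RNA per cell cannot be told apart either.

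At 12 months, 7 of the 38 lysosomal genes were called between APP and WT hippocampus, and all 7 were higher in APP. They were Cd68 (chr11:69664213-69666153, minus strand, GRCm38) and Laptm5 (chr4:130913125-130936141) among the membrane proteins, Hexa (chr9:59539540-59565109), Gusb (chr5:129989011-130003049) and Man2b1 (chr8:85083270-85098282) among the glycosidases, Npc2 (chr12:84754562-84773152) in lipid handling, and Grn (chr11:102430315-102437048). The share of all genes called in this comparison was 0.433%, and the shares called higher and lower were 0.411% and 0.0225%. The 38 genes were chosen with earlier results of these data known, so such shares, here and below, are reference values and no test. None of the 12 V-ATPase genes was called. The median change was 0.31 over the 26 genes outside the V-ATPase, -0.05 over the V-ATPase genes, and -0.0048 over all genes tested.

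Cd68, a heavily glycosylated LAMP family protein of phagocytes, was at 22.7, 19.6 and 20.9 scaled TPM in the 3 APP mice of 12 months and at 5.56, 5.40 and 4.61 in the 3 WT mice. All APP values lay above all WT values, with a ratio of means of 4.05. The log2 change was 1.83 (SE 0.33, adjusted p = 0.0235). Laptm5, a lysosomal transmembrane protein of haematopoietic cells, was at 36.3, 32.9 and 35.9 in APP and at 13.4, 12.3 and 14.9 in WT, a ratio of 2.59. Its groups did not overlap, and its log2 change was 1.31 (SE 0.24, adjusted p = 0.0235).

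The general lysosomal membrane proteins differed less. Lamp1, a major glycoprotein of the lysosomal membrane, was at 123, 121 and 121 scaled TPM in APP and 97.9, 103 and 94.2 in WT mice of 12 months. Lamp2, which also serves as the receptor of chaperone-mediated autophagy, was at 67.3, 72.9 and 62.2 in APP and 39.7, 50.4 and 46.8 in WT. Neither gene overlapped between the groups and neither was called (log2 change 0.31, SE 0.09, adjusted p = 0.306 for Lamp1; 0.56, SE 0.16, adjusted p = 0.251 for Lamp2, which is X-linked). Cd63, a tetraspanin of late endosomes and exosomes, was at 48.4, 49.6 and 51.2 in APP and 27.6, 33.6 and 26.8 in WT, with a log2 change of 0.75 (SE 0.25, adjusted p = 0.400). The other 4 membrane genes, Scarb2, Laptm4a, the calcium channel gene Mcoln1 and Tmem106b, had log2 changes between -0.03 (Mcoln1) and 0.13 (Scarb2).

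Of the glycosidases, Hexa had the smallest adjusted p in the group at 12 months. Hexa encodes the alpha subunit of beta-hexosaminidase, which degrades GM2 ganglioside. It stood at 33.8, 31.8 and 32.8 scaled TPM in APP mice of 12 months and at 14.02, 15.99 and 14.86 in WT mice, so that every APP value lay above every WT value, with a ratio of means of 2.19 (log2 change 1.08, SE 0.13, adjusted p = 0.00145). Gusb, beta-glucuronidase, was at 11.5, 11.7 and 10.6 in APP and at 5.28, 4.82 and 5.20 in WT. The ratio of its means was 2.21, with a log2 change of 1.01 (SE 0.16, adjusted p = 0.00993). Man2b1, lysosomal alpha-mannosidase, was at 20.6, 21.1 and 22.3 in APP and 12.5, 11.8 and 12.6 in WT (log2 change 0.74, SE 0.14, adjusted p = 0.0255). The 3 genes thus separated the genotypes completely at this age. Naglu, which degrades heparan sulfate, was at 5.42, 4.43 and 4.71 in APP and 3.05, 3.09 and 3.17 in WT, and was not called (log2 change 0.51, SE 0.13, adjusted p = 0.159). The remaining glycosidase genes, Gaa, Gla, Glb1 and Neu1, had log2 changes between -0.02 (Gla) and 0.29 (Glb1).

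Npc2, a soluble protein that hands cholesterol to the lysosomal membrane, was at 25.5, 24.9 and 23.0 scaled TPM in APP and 11.16, 15.01 and 14.39 in WT mice of 12 months. The groups did not overlap, and the log2 change was 0.82 (SE 0.17, adjusted p = 0.0459). Among the other lipid-handling genes the largest change was that of Lipa, lysosomal acid lipase (0.43, SE 0.14, adjusted p = 0.420), and Psap, the precursor of the saposins, changed by 0.17 (SE 0.12, adjusted p = 0.889). Grn, the precursor of the granulins, a secreted protein that is also sorted to lysosomes, was at 39.4, 42.4 and 43.5 in APP and 22.3, 23.9 and 23.7 in WT. Its log2 change was 0.81 (SE 0.15, adjusted p = 0.0279), with no overlap between the groups. The proteases Lgmn and Tpp1 had changes of 0.44 and 0.31 and were not called (adjusted p = 0.272 and 0.457). Tfeb, the transcription factor that activates many lysosomal genes, was at 4.12, 4.68 and 3.30 in APP and 3.12, 2.16 and 4.13 in WT. The Tfeb values of the 2 genotypes overlapped (log2 change 0.30, SE 0.22, adjusted p = 0.893).

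**Figure D1:**
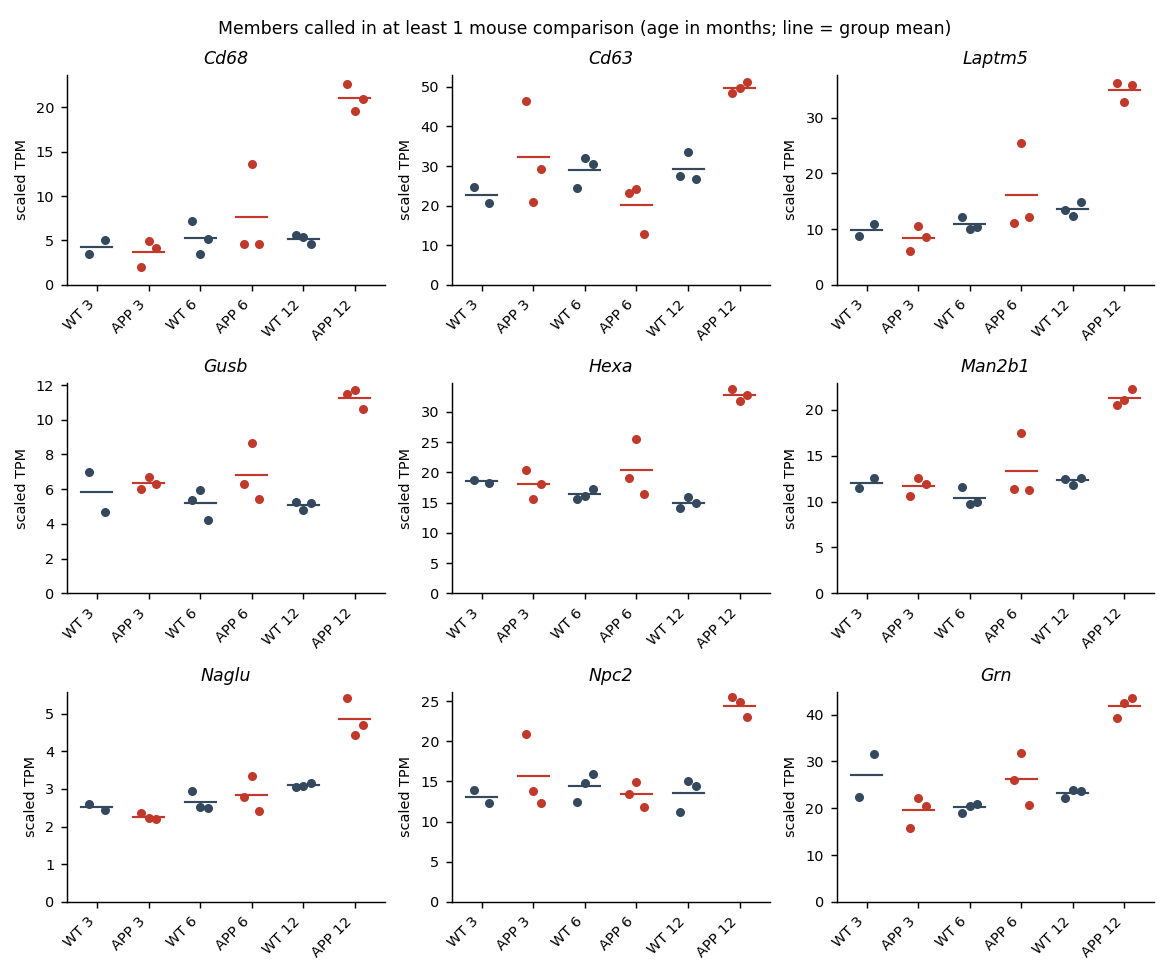
Scaled TPM (vertical axes, from 0) of the 9 lysosomal genes called in at least 1 mouse comparison, by genotype and age in months (horizontal axes). Points are mice and lines are group means. In each panel the 3 APP mice of 12 months lie above all other libraries, for example at 19.6 or more for Cd68, and 1 APP mouse of 6 months stands apart at 13.6 in that panel.

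Leaving out any 1 of the 6 mice of 12 months reduced the number of called genes to 1 or 2. The share of all genes called in these fits is not given here, so the drop cannot be read as particular to the group. Hexa passed in each of these fits, with an adjusted p of at most 0.0135 over 14 alternatives, whereas Cd68, Laptm5, Man2b1 and Grn passed in none of the 6, with a highest adjusted p of 0.136 for Cd68. Npc2 was the least stable of the 7: it passed in 4 of 14 alternatives, with an adjusted p of up to 0.249. The log2 change of Cd68 ranged from 1.76 to 2.00 over the 14 alternatives. A wider count that does not rest on the threshold is that of genes whose APP and WT values did not overlap: 17 of 38 were higher in APP at 12 months, against 8.62% of all genes, and 0 were lower, against 7.0%. All 17 were outside the V-ATPase. The other 9 genes outside the V-ATPase overlapped between the genotypes, and some of them, such as Mcoln1 (-0.03), Gla (-0.02) and Gaa (0.11), had changes within the range of the V-ATPase genes in the plot of gene changes.

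**Figure D2:**
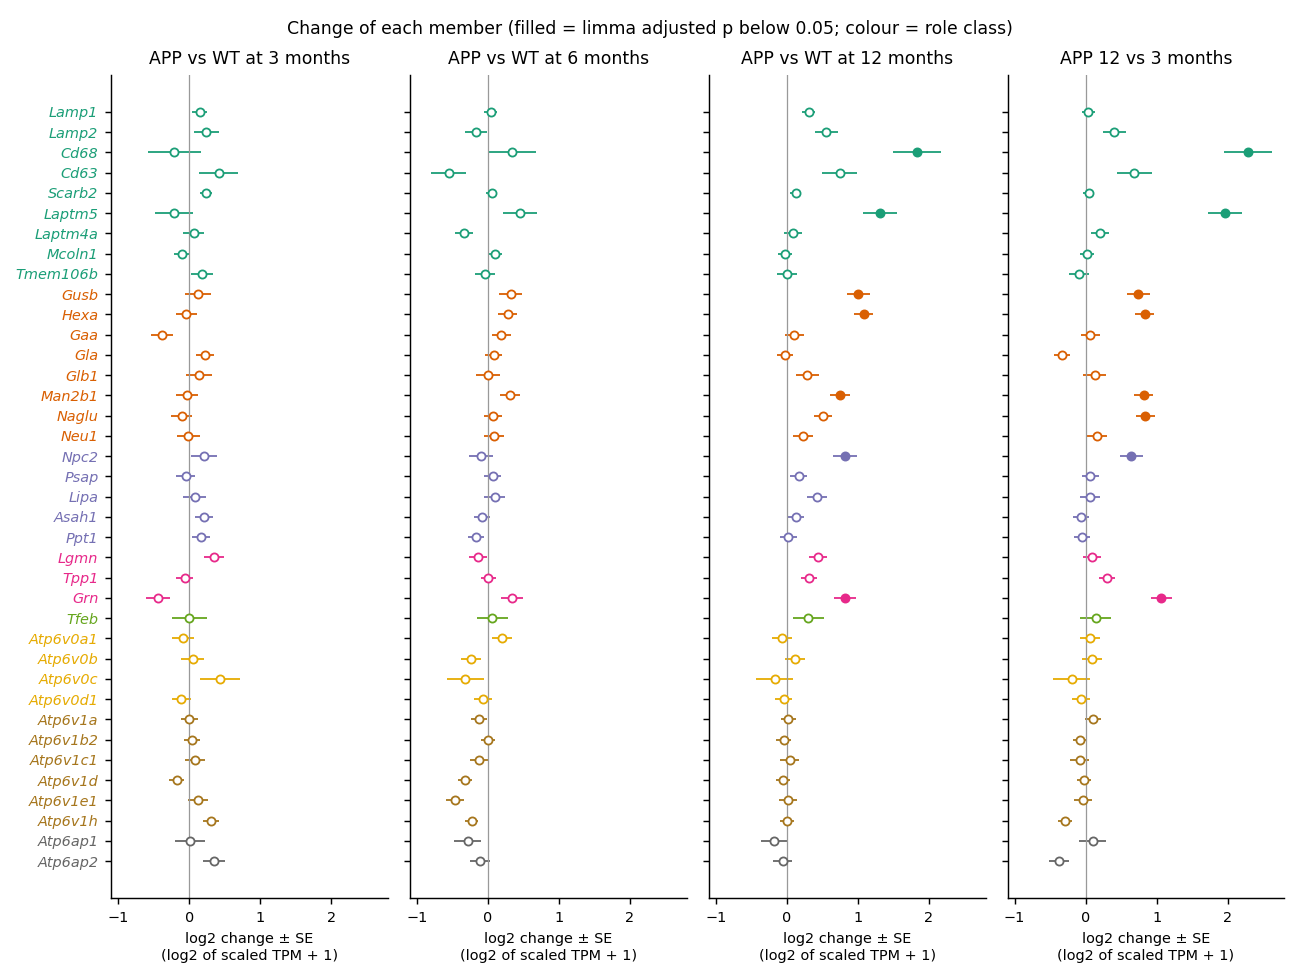
Log2 change ± SE (horizontal axes) of each of the 38 genes, coloured by role, for APP against WT at 3, 6 and 12 months and for APP mice of 12 against 3 months. Filled points were called: 0, 0, 7 and 8 genes from left to right, with no V-ATPase gene among them.

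Other cell types were measured alongside through marker lists. In APP mice of 12 months the summed level of 8 plaque-associated microglial markers was 148 to 204 scaled TPM, against 36.9 to 37.3 in WT, and 6 of the 8 were called higher. The sum of 8 homeostatic microglial markers was 126 to 140 in APP and 79.2 to 92.8 in WT, with 3 of 8 called higher. This list did not move as 1: its marker P2ry12 was at 19.7, 22.4 and 18.0 in APP and 22.5, 19.4 and 17.1 in WT. The 7 choroid plexus markers summed to 1446 to 1668 in APP and 425 to 1317 in WT; all 7 had changes above 0, and 0 were called. The 7 astrocyte markers summed to 1382 to 1551 and 1032 to 1081, with 1 called higher. Most of this difference lay in Gfap, at 460 to 582 in APP and 124 to 135 in WT. The 6 endothelial and mural markers summed to 38.8 to 42.2 in APP and 26.4 to 35.0 in WT, without overlap. Of the neuronal and oligodendrocyte markers, 0 of 8 and 0 of 8 were called. No marker of these lists was at 0 in every hippocampus library, but the plaque-associated marker Cst7 was at 0 in 1 WT mouse of 12 months and at 25.5 to 36.2 in the APP mice of that age. The part of these cell types in the changes of the lysosomal genes was not tested.

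Across age in APP mice, 8 of the 38 genes were higher at 12 than at 3 months and 0 were lower, against 1.9% of all genes called higher, 1.37% called lower and 3.27% called in either direction. This comparison shares the 12-month APP mice with the one above. Laptm5 rose from 6.08, 10.6 and 8.63 scaled TPM at 3 months, a log2 change of 1.96 (SE 0.24, adjusted p = 0.00124). Cd68 rose from 2.00, 4.99 and 4.12, a log2 change of 2.28 (SE 0.33, adjusted p = 0.00279). In both genes the 2 age groups were far apart, with ratios of means of 4.14 for Laptm5 and 5.68 for Cd68.

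Grn rose from 15.9, 22.2 and 20.6 at 3 months (1.07, SE 0.15, adjusted p = 0.0026), and Naglu from 2.37, 2.23 and 2.19 (0.84, SE 0.13, adjusted p = 0.00369). Hexa stood at 20.4, 15.6 and 18.1 at 3 months and rose by 0.83 (SE 0.13, adjusted p = 0.00406). The glycosidase genes Man2b1 (0.82, adjusted p = 0.00583) and Gusb (0.74, adjusted p = 0.0233) and the cholesterol carrier gene Npc2 (0.65, adjusted p = 0.0488) rose as well. Cd68, Laptm5, Hexa, Man2b1 and Grn passed in all 14 alternatives, and Npc2 in 4 of 14. Counted by overlap, 11 genes were higher in every mouse of 12 months (11.3% of all genes) and 3 were lower (10.7%): Gla, Atp6v1h and Atp6ap2. The 8 plaque-associated microglial markers, at 25.9 to 31.2 at 3 months, were all called higher, as were 3 of 8 homeostatic microglial and 2 of 7 astrocyte markers (astrocyte sum 764 to 947 at 3 months and 1382 to 1551 at 12). Called lower were 6 of 8 oligodendrocyte markers and 3 of 9 tested immediate-early genes. The part of these genes and cell types in the changes was not tested.

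At 3 months none of the 38 genes was called between APP and WT by limma, with 6 at an unadjusted p below 0.05, against 13.4% of all genes. The share of all genes called was 0.304% (0.124% higher, 0.18% lower). The largest changes were those of Grn (-0.44, SE 0.17, adjusted p = 0.269) and Atp6v0c (0.43). Counted by overlap, 7 genes were higher in APP and 4 lower, against 13.8% and 13.4% of all genes. Cd68 at this age was at 2.00, 4.99 and 4.12 in APP and 3.52 and 5.01 in WT, and Laptm5 was at 6.08, 10.6 and 8.63 in APP and 8.68 and 10.97 in WT. Both genes overlapped between the genotypes.

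At 6 months again 0 of 38 were called by limma, with 7 at an unadjusted p below 0.05 (17.01% of all genes), while 1.71% of all genes were called (0.428% higher, 1.28% lower). Without overlap, 1 gene was higher in APP (11.1% of all genes) and 5 were lower (10.2%). The 3 APP mice of this age differed among themselves. For Cd68 they stood at 4.63, 13.6 and 4.56 scaled TPM, beside 7.14, 3.50 and 5.12 in WT. For Laptm5 the values were 11.1, 25.4 and 12.1, beside 12.2, 10.0 and 10.3, and for Hexa 19.1, 25.6 and 16.5, beside 15.6, 16.2 and 17.3. The mouse with replicate number 2 was the highest of the 3 for all 9 genes that were called in any mouse comparison, as it was for 34.3% of all genes tested.

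In that mouse the plaque-associated microglial markers summed to 97.2, against 31.9 and 27.9 in the other APP mice of 6 months, and the choroid plexus markers to 39.2, against 914 and 576. It also had the lowest value of the 3 for 11 of the 12 V-ATPase genes, as it had for 34.0% of all genes tested. The heat map of all 38 genes shows this column beside those of the 12-month APP mice.

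**Figure D3:**
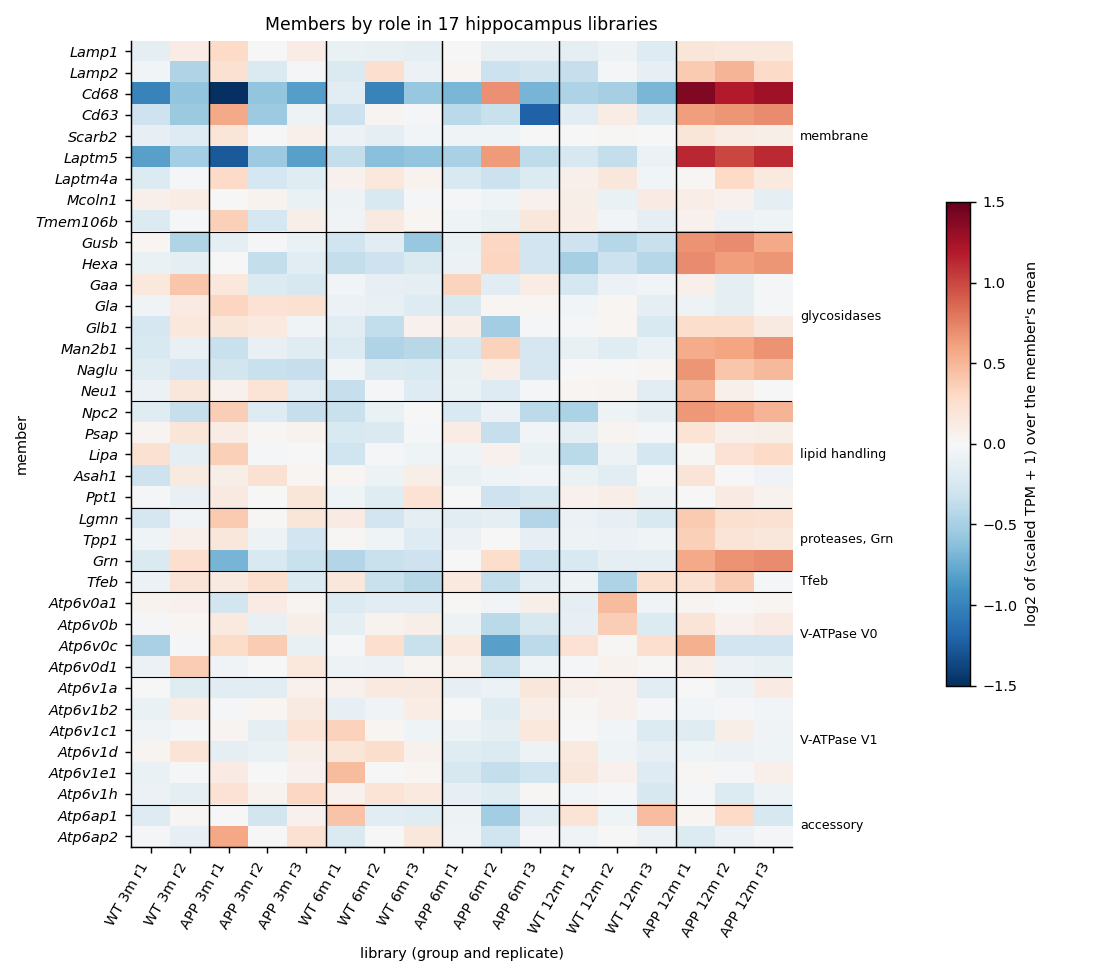
Log2 ratio of scaled TPM + 1 to its mean over the 17 hippocampus libraries (colour) for each gene (vertical axis, grouped by role) in each library (horizontal axis, grouped by genotype and age). The 3 APP mice of 12 months share raised values in genes such as Cd68, Laptm5 and Hexa, the APP mouse of 6 months with replicate number 2 shows part of this pattern, and no V-ATPase gene was called in any mouse comparison.

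Between 6 and 12 months in APP mice, 5 genes were called and all were higher at 12 months, against 0.54% of all genes called, 0.518% called higher and 0.0225% called lower. They were Cd63 (1.32, SE 0.25, adjusted p = 0.0333), Hexa (0.68, adjusted p = 0.0378), Npc2 (0.83, adjusted p = 0.043), Laptm5 (1.16, adjusted p = 0.0457) and Man2b1 (0.66, adjusted p = 0.0488). Cd63 was at 23.1, 24.3 and 12.8 scaled TPM at 6 months and 46.3, 21.0 and 29.3 at 3 months, so that 1 mouse of 3 months came close to the 48.4 to 51.2 of 12 months. That mouse also had the highest choroid plexus sum, 2439, beside 1446 to 1668 at 12 months. The APP mouse of 6 months with a sum of 39.2 had the highest Cd63 of its group, 24.3. A WT mouse of 3 months with a sum of 1489 had a Cd63 level of 24.8. Of the WT mice of 12 months, the one with the highest sum, 1317, had the highest Cd63, 33.6. Whether Cd63 levels follow the choroid plexus markers was not tested. Of the marker lists, 5 of 8 plaque-associated and 3 of 8 homeostatic microglial markers and 1 of 7 astrocyte markers were called higher at 12 than at 6 months, and the part of these cell types in the changes was not tested. The count of called genes depended on the libraries: it was 9 without the APP mouse of 6 months with replicate number 2, and 0 without any 1 of the other APP mice of either age. By overlap, 19 genes were higher at 12 months (10.7% of all genes) and 0 lower (9.33%).

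In WT mice, 0 of the 38 genes were called by limma between 6 and 12 months, 1 had an unadjusted p below 0.05 (6.84% of all genes) and 0.0% of all genes were called. The changes ran from -0.24 (Atp6v1h) to 0.30 (Laptm5), and Cd68 and Hexa were at 0.02 and -0.12. By overlap 6 genes were higher and 1 lower at 12 months, against 6.06% and 6.15% of all genes. The question of whether the APP effect differed between 12 and 3 months was tested as an interaction. No gene of the group was called in it by limma, 10 had an unadjusted p below 0.05 (10.1% of all genes), and 0.0732% of all genes were called (0.0394% higher, 0.0338% lower). The smallest adjusted p was that of Hexa (difference of log2 changes 1.13, SE 0.20, adjusted p = 0.057), followed by Grn (1.26, SE 0.23, adjusted p = 0.0625), while Cd68 had the largest difference (2.04, SE 0.50, adjusted p = 0.163). In TPM as deposited 6 genes were called here, all higher. On that scale all 26 genes outside the V-ATPase and 10 of the 12 V-ATPase genes had differences above 0, with medians of 0.61 and 0.27. Size factors were 1.11 and 1.22 in WT mice of 3 months and 0.818 to 1.09 in WT mice of 12 months. Deposited TPM therefore holds a shift of all genes in this contrast, which the scaling removes. Other settings called fewer genes or none.

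The V-ATPase genes were among the most abundant of the group in hippocampus. Psap had the highest mean level (453 ± 45.4 scaled TPM, SD, n = 17 libraries), followed by Atp6v0c (220 ± 51.8), which encodes the proteolipid of the proton-conducting ring, and Atp6v1a (187 ± 15.9), which encodes the catalytic subunit. Ranges of Atp6v0c (124 to 318) and Atp6v1a (164 to 210) overlapped, so their order is not resolved. The lowest means were those of Gla (4.82 ± 0.641), Tfeb (3.35 ± 0.778) and Naglu (3.07 ± 0.934), whose ranges also overlapped.

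Atp6v1a was at 188, 177 and 203 scaled TPM in APP and 198, 196 and 167 in WT mice of 12 months (log2 change 0.02, SE 0.11). Over the 12 V-ATPase genes the changes at this age ran from -0.17 to 0.11. The largest in size among V0 subunits was that of Atp6v0c, at 318, 181 and 180 in APP and 256, 222 and 262 in WT (-0.17, SE 0.26). Among V1 subunits it was that of Atp6v1d, at 50.0, 49.2 and 50.0 in APP and 58.0, 49.9 and 48.0 in WT (-0.06, SE 0.10), and of the accessory proteins that of X-linked Atp6ap1, at 68.0, 81.9 and 56.3 in APP and 77.0, 63.6 and 92.2 in WT (-0.17, SE 0.19). All 3 genes overlapped between the genotypes. The signs of these small changes depend on the scaling: 5 of 12 were above 0, against 10 of 12 in TPM as deposited, where the median of all genes moved by 0.12.

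At 6 months all 6 V1 genes had changes below 0, and none was called. Atp6v1e1, of the peripheral stalk, was at 140, 128 and 134 scaled TPM in APP and 229, 165 and 168 in WT (-0.46, SE 0.12, adjusted p = 0.0723). Atp6v1d, of the central rotor, was at 45.9, 45.3 and 49.7 in APP and 59.5, 63.3 and 54.8 in WT (-0.33, SE 0.10, adjusted p = 0.0984). Neither gene overlapped between the genotypes. In TPM as deposited the median of all genes moved to 0.60 at this age and 58.0% of all genes were called. On that scale all 12 V-ATPase genes were above 0, with a median of 0.53, and Atp6v1e1 (0.25) and Atp6v1d (0.38) lay below the median of all genes.

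Of 80 further lysosomal genes, 72 were tested in mouse, and 8 of them were called higher and 0 lower at 12 months in APP against WT. Of all genes, 0.411% were called higher and 0.0225% lower. These lists too were chosen with earlier results of these data known, so the counts are no independent test. Cathepsins, the lysosomal proteases, made up 6 of the 8, of 11 tested: the largest changes were those of Ctss (1.66, SE 0.23, adjusted p = 0.00479), Ctsz (1.53, adjusted p = 0.00367), Ctsd (1.45, adjusted p = 0.00269) and Ctsc (1.04, adjusted p = 0.0165). Gpnmb, a membrane glycoprotein (2.34, SE 0.27, adjusted p = 0.000828), was the 1 gene called of 17 further membrane genes. Of 7 further V-ATPase genes and 14 sorting or regulatory genes, 0 were called. The median change over the 72 was 0.09, against -0.0048 over all genes tested.

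Promoters were compared between genes that were and were not called, since TFEB is known to bind an E-box with the letters CACGTG and, in many lysosomal genes, the longer palindrome TCACGTGA. RefSeq windows of 250 bases before to 50 after the start site (GRCm38.p6, both strands searched) were found for 34 of the 38 genes. CACGTG was in 10 of the 34, against 8.09% of 27025 genes, and TCACGTGA, which contains it, was in 4 (Atp6v0d1, Atp6v1a, Gla and Mcoln1), against 1.12%. Of the 9 genes called in any mouse comparison, 1 (Naglu) held CACGTG and 0 held TCACGTGA; of the 9 V-ATPase genes with a window, 3 and 2 did. Cd68 and Hexa were called and hold neither motif. Lamp1 and the V0 gene Atp6v0b were not called and hold several copies of CACGTG but no TCACGTGA. Lamp1 did not overlap between the genotypes at 12 months. The 250 bases before the start follow for these 4 genes, 5′ to 3′ on the strand of the gene, with CACGTG in capitals. They lie at chr11:69666171-69666420 (minus strand), chr9:59539290-59539539 (plus), chr8:13158911-13159160 (plus) and chr4:117887330-117887579 (minus).
Cd68: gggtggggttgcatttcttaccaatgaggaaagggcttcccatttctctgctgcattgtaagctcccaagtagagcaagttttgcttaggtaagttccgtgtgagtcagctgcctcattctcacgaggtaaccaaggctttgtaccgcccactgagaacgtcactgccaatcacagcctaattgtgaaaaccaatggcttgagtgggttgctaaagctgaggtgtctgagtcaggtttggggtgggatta
Hexa: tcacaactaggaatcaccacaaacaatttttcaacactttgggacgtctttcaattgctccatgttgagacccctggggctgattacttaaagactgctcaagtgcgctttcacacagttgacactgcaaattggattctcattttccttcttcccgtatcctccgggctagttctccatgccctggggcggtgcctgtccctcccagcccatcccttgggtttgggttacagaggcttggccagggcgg
Lamp1: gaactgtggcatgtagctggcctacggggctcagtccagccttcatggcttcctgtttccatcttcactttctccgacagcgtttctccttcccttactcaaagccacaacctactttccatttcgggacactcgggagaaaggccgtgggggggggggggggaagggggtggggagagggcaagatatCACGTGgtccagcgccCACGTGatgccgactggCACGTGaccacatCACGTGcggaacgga
Atp6v0b: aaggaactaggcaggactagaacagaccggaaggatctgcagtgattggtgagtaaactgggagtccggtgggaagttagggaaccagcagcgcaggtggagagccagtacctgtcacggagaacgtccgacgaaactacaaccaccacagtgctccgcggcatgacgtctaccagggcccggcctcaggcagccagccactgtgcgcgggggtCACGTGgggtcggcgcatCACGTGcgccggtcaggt
The first base of CACGTG stood 61, 45, 28 and 15 bases before the start in Lamp1 and 36 and 18 bases before it in Atp6v0b. At 12 months Atp6v0b, which encodes a further proteolipid of the V0 ring, had a log2 change of 0.11 (SE 0.14, adjusted p = 0.970), beside the 0.31 of Lamp1 given above. A match describes these letters and does not show that a factor binds there. The 4 windows shown were picked as examples, and the part of TFEB in the changes was not tested.

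In HT-22 cells the same genes had another order of levels. Psap was again highest (350 ± 21.3 scaled TPM, SD, n = 14 libraries), followed by Cd63 (345 ± 60.3) and Lamp1 (295 ± 21.0), whose ranges overlapped. Laptm5 was listed at 0 in all 14 libraries, Cd68 was at 3.99 ± 1.28 and Tfeb at 8.999 ± 2.88. The 2 systems were scaled separately, so their levels are set side by side as a description: 19 of the 26 genes outside the V-ATPase were higher in HT-22 cells, among them Cd63 (11.1 times) and Grn (7.28 times), and all 6 V1 genes were lower. Of the microglial markers, 6 of 8 homeostatic and 6 of 8 plaque-associated genes had means below 1, with Tyrobp, Clec7a and P2ry12 at 0. The rest were not all low: Tmem119, of the homeostatic list, was at 6.63 to 54.9, beside 5.58 to 11.8 in hippocampus. Its values of 53.3 to 54.9 came from 3 scramble libraries (Aβ42 replicates 3 and 4, reverse peptide replicate 4). The other 11 were at 6.63 to 13.8. The plaque-associated list summed to 81.5 to 200 (81.5 to 90.2 with anti-Hsf1 LNA). With 6 of its 8 genes below 1 on average, this sum lay mainly in Lyz2 and Axl. It is therefore no counterpart of the 148 to 204 in APP mice of 12 months. Of 8 neuronal markers all had means below 1, with Rbfox3, Snap25, Syt1, Gad1 and Nefl at 0, although the line is described as hippocampal.

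**Figure D4:**
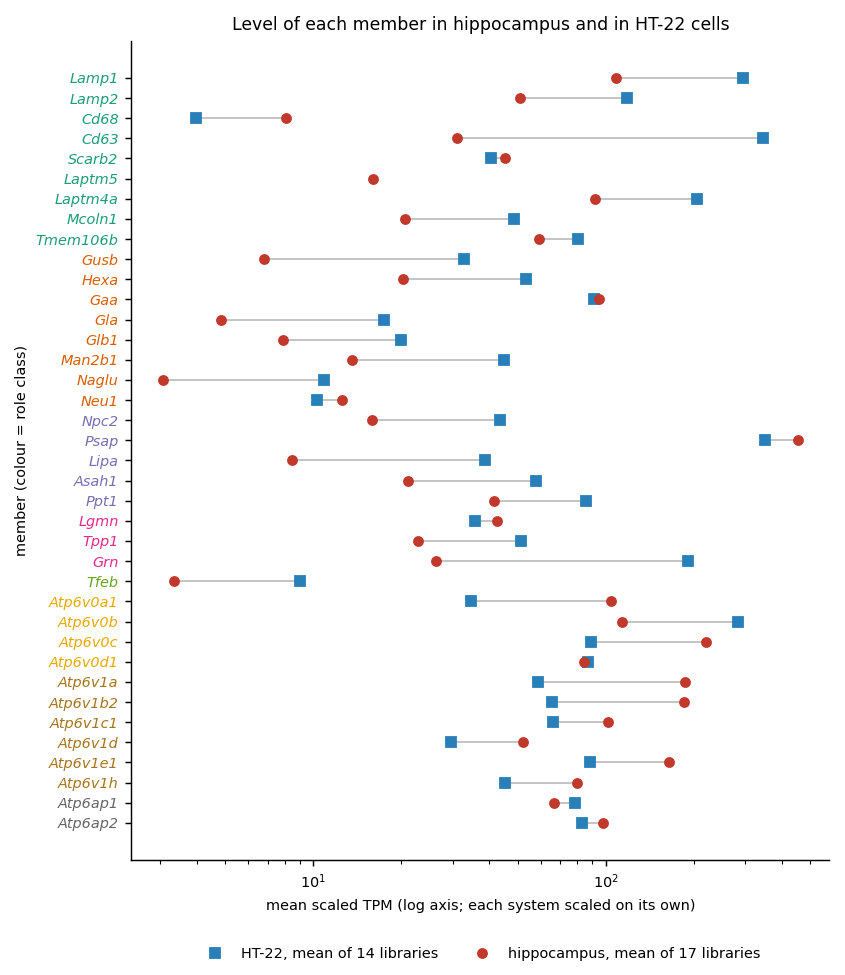
Mean scaled TPM (horizontal log axis) of each gene (vertical axis, coloured by role) in 17 hippocampus libraries (circles) and 14 HT-22 libraries (squares), each system scaled on its own. The V1 subunits lie lower in HT-22 cells and most hydrolases higher, and Laptm5, at 0 in HT-22 cells, has no square.

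The anti-Hsf1 label was checked first. Hsf1 was at 61.6 ± 9.31 scaled TPM (SD, n = 4) with scramble LNA and 47.2 ± 4.07 (n = 3) with anti-Hsf1 LNA under Aβ42, and at 53.8 ± 7.89 (n = 4) and 48.2 ± 4.81 (n = 3) under the reverse peptide. The change under Aβ42 was -0.37 (SE 0.14, adjusted p = 0.520), so the libraries labelled anti-Hsf1 were not shown to have less Hsf1 RNA. In addition, 3 libraries with scramble LNA (Aβ42 replicates 3 and 4, reverse peptide replicate 4) had a summed level of 10 immediate-early genes of 1062 to 1236, against 128 to 202 in the other 11. Their relative depth was 1.203 to 2.60, against 0.724 to 1.21.

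None of 37 tested genes of the group was called by limma in any of the 5 HT-22 comparisons. Between Aβ42 and reverse peptide, 0 (scramble LNA) and 1 (anti-Hsf1 LNA) had an unadjusted p below 0.05. Between anti-Hsf1 and scramble LNA the numbers were 0 (reverse peptide) and 3 (Aβ42), and for the interaction of peptide and LNA 0. Of all genes, 5.03%, 4.59%, 3.61%, 9.02% and 5.18% had an unadjusted limma p below 0.05, in the same order. The shares of all genes called were 0.0%, 0.0%, 0.0%, 0.0232% and 0.0% in the same order. Without the 3 libraries high in immediate-early genes, again 0 were called in each comparison.

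Tfeb had the largest change of the group between the LNAs under Aβ42, at 12.4, 11.1 and 15.4 scaled TPM with anti-Hsf1 LNA and Aβ42 and 9.41, 8.27, 9.63 and 3.60 with scramble LNA and Aβ42. The 2 groups did not overlap, but the gene was not called (0.74, SE 0.28, adjusted p = 0.506). In TPM as deposited the means were 9.18 and 9.16, on a scale where most of the group lay lower with anti-Hsf1 LNA. The value of 3.60 came from 1 of the 3 libraries high in immediate-early genes. With Tpp1, Tfeb was 1 of 2 genes without overlap in this comparison, both higher, against 4.38% of all genes. Between the peptides under anti-Hsf1 LNA, 8 genes were higher with Aβ42 without overlap (8.74% of all genes), among them Tfeb, at 7.44, 7.5 and 9.09 with the reverse peptide, and 0 were lower (9.61%). Between the LNAs under the reverse peptide, 1 gene was higher without overlap (3.15%), and between the peptides under scramble LNA 0 were higher (0.935%) and 0 lower (1.42%). Cd68 was at 1.83, 4.29, 5.75 and 5.44 with Aβ42 and 4.76, 5.02, 2.14 and 5.22 with the reverse peptide under scramble LNA, and overlapped.

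The libraries high in immediate-early genes also stood apart in several lysosomal genes. In 14 of the 38 genes all 3 lay below the other 11 libraries, and in 2 (Cd68 and Atp6v1h) above, while of all genes tested 12.0% lay below and 15.5% above. For Grn the 3 were at 140, 154 and 114 scaled TPM, and the others ran from 180 to 243. For Hexa they were at 44.7, 38.3 and 44.3, against 54.0 to 60.3. The separation was complete for both genes. These libraries were singled out after their values were seen, so no test was made.

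**Figure D5:**
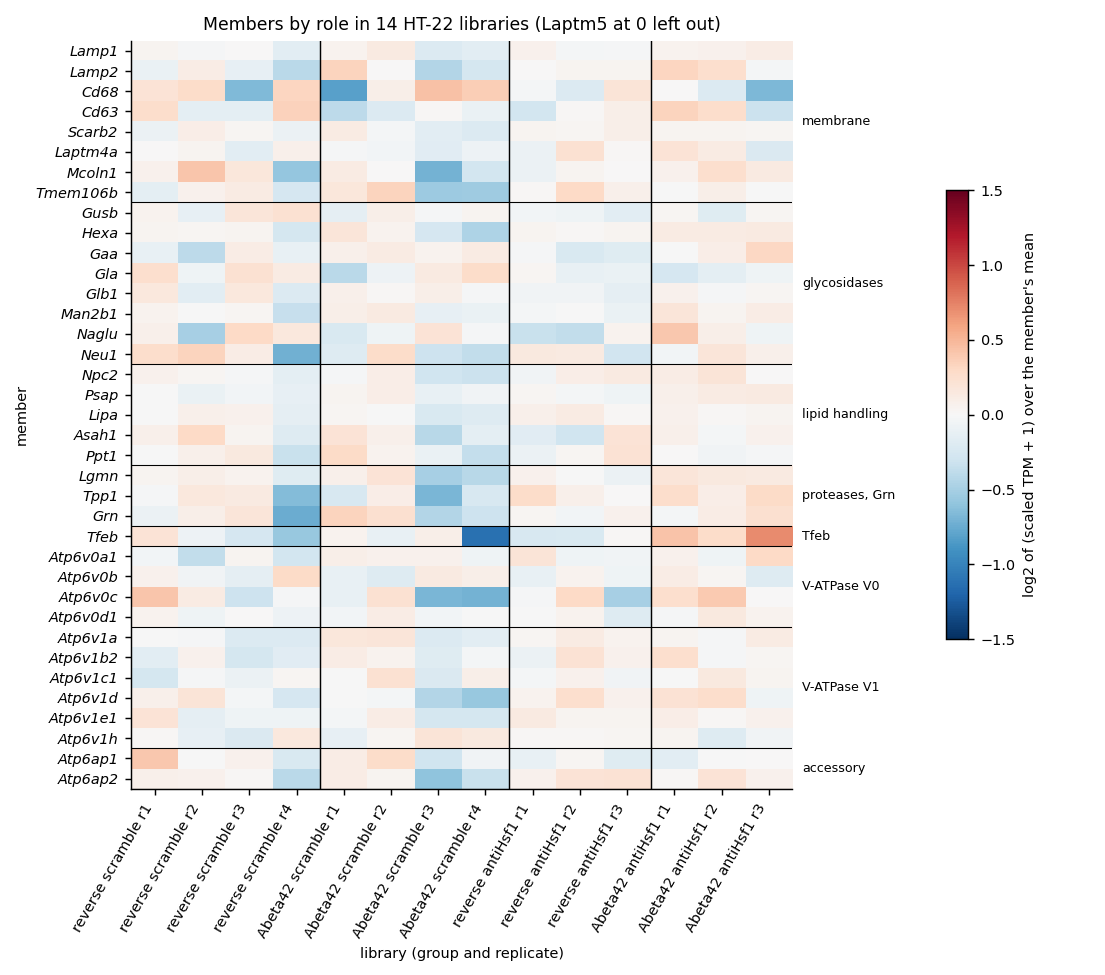
Log2 ratio of scaled TPM + 1 to its mean over the 14 HT-22 libraries (colour) for each gene (vertical axis, grouped by role) in each library (horizontal axis, grouped by peptide and LNA); Laptm5, at 0 in all, is left out. The columns that differ most are reverse scramble replicate 4 and Aβ42 scramble replicates 3 and 4, in which Grn is at 114 to 154 scaled TPM, and 0 genes were called between groups.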

How the data were processed

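Long RNA was fragmented, depleted of ribosomal RNA and made into libraries with a kit that does not mark strand, per the labels' protocols. The submitters' processing notes name cutadapt 1.18, HISAT2 2.1.0 and StringTie 1.3.4d among the tools, and the builds mm10 and GRCm38. Per the file headers, the authors deposited TPM, FPKM and coverage (a signal, the mean read depth over a gene) for each gene and library, without pooling. Repeated entries of an identifier were added up. TPM was divided by median-of-ratios size factors (0.639 to 1.46), and log2(scaled TPM + 1) of genes with a mean of at least 1 was fitted with limma 3.58.1 (R 4.3.3, trend and robust options), 1 fit per system over all its groups. Coverage over FPKM, both as deposited, gave relative depth. The scripts were tested on simulated data. The short-RNA files were not used here. The members and lists were chosen with earlier results of these data known. Named genes were those called in at least 1 comparison, the largest change of each role at 12 months, Tfeb, Lamp1, Lamp2 and the highest and lowest mean levels. Exons of 8 genes overlap another gene, mostly on the opposite strand, and their reads cannot be told apart there: 12.8% of the exon bases of Hexa overlap Tmem202 (mean 0.675 scaled TPM) and 1.96% of those of Grn overlap Fam171a2 (19.0). Pseudogenes of Cd63 and Atp6v0c could share their reads, so these values are less certain. Alternatives were TPM as deposited, quantile normalisation, another pseudocount and filter, fits on the compared groups, array weights, a replicate block and leaving out each library. The exclusion of the 3 HT-22 libraries was chosen after seeing the data. The values of 1 gene that the rule would name are not reported here.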

Additional observations from a re-analysis of the deposited data

Results flagged for a closer look

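Among the 4 HT-22 libraries with reverse peptide and scramble LNA, 4 genes had 1 library far below the other 3, by a test of the gap against the range of the group (Dixon). Replicate 4 was low for Hexa (44.3 scaled TPM, others 54.5 to 54.9), Man2b1 (35.0, others 44.6 to 46.5) and Atp6ap2 (62.5, others 84.0 to 87.9). Replicate 3 was low for Cd68 (2.14, others 4.76 to 5.22). Of 74 groups tested, 4 were marked in this way, and chance marks about 1 in 20. Replicate 4 is 1 of the 3 libraries high in immediate-early genes.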

How the results depend on the processing

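The number of genes called at 12 months, 7, ranged from 1 to 2 when 1 of the 6 mice was left out (lowest without APP replicate 1 or WT replicate 2) and was 6 to 8 otherwise; for APP mice of 12 against 3 months it was 6 to 9 throughout. For APP mice of 12 against 6 months it moved from 5 to 0 in TPM as deposited, without the filter or with the compared groups alone, to 1 with quantile normalisation or a pseudocount of 0.1, to 10 with array weights, and to between 0 and 9 with 1 mouse left out. For the genotype-by-age contrast it moved from 0 to 6 in TPM as deposited, 2 with a mean of at least 5 or array weights, 1 with the compared groups alone, and between 0 and 2 with 1 mouse left out, where a lone WT mouse of 3 months is assumed to vary like the other groups. In TPM as deposited, 33 genes were called higher at 6 months, where the median of all genes moved by 0.60, and 18, 24 and 18 lower in HT-22 cells for Aβ42 against reverse peptide under anti-Hsf1 LNA, anti-Hsf1 against scramble LNA under Aβ42, and their interaction, where it moved by -0.52, -0.62 and -0.68. These deposited values called 58.0%, 24.3%, 50.7% and 25.3% of all genes in the same order. Array weights called 7 of 37 genes higher for anti-Hsf1 against scramble LNA under Aβ42, where they called 10.7% of all genes. For the other counts under an alternative, the share of all genes called is not given here. Replicate numbers showed no general pairing of the mice: same-numbered mice had correlations of -0.15 to 0.23 (3 of 40 above 0.1). Same-numbered HT-22 libraries had correlations of -0.22 to 0.57 (median 0.013, 3 of 19 above 0.1), so some of them may be paired. Both scramble libraries with replicate number 4 were high in immediate-early genes. With the replicate block the counts were 1 for APP 12 against 6 months and 1 for the genotype-by-age contrast, and Npc2 was called neither at 12 months (adjusted p = 0.0856) nor for APP mice of 12 against 3 months (0.0744). Over the genes named as called, 176 of 279 values under an alternative kept their call, 103 lost it and 0 changed sign; the cause was not tested. The number of reads behind a gene is unknown.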
